A study of Bos taurus with 4 samples.

Results

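The alpha-arrestins are adaptor proteins with an arrestin fold, and 5 of their genes, *ARRDC4*, *TXNIP*, *ARRDC2*, *ARRDC3* and *ARRDC1*, were followed in the inner cell mass (ICM) of bovine embryos. They were taken as a named gene family, and every probe whose symbol in the annotation of the array was one of these names was kept. The 5 genes, of 12,545 genes named on the array, had 19 probes, 3 for *ARRDC1* and 4 for each of the others. The family was chosen by the log2 ratio of NHSM over SOF of *ARRDC4*, which was already known to be among the highest in these data. The difference between the media is therefore given for the 5 genes as a description, with the value on every array and no p-value.

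Embryos were produced in vitro. They were first cultured for 4 days in synthetic oviductal fluid (SOF), the standard medium for bovine embryos. They were then moved to naïve human stem cell medium (NHSM) or to fresh SOF. In both cases the atmosphere held 7% O2, and the ICMs were dissected by hand at day 9 after fertilization. NHSM has KO-DMEM as its base, with KOSR (a serum replacement) at 20%, the cytokine LIF at 20 ng/ml, the growth factors bFGF at 8 ng/ml and TGFβ1 at 1 ng/ml, insulin, and inhibitors of MEK (PD0325901), GSK3 (CHIR99021), PKC (Go6983), JNK (SP600125) and p38 (SB203580). SOF holds none of these growth factors and inhibitors, so the effect of a single component cannot be told apart from that of the others. Hand-dissected ICMs keep some trophectoderm cells, as the study describes. Each of the 4 Agilent bovine V2 arrays carried RNA of 1 NHSM pool and 1 SOF pool, with 11 to 24 ICMs per pool, and the study describes the pools as biological replicates. On arrays 1 and 3 the dyes were Cy3 for NHSM and Cy5 for SOF, and on arrays 2 and 4 they were the other way round.

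Alpha-arrestins bring ubiquitin ligases of the NEDD4 family to proteins of the cell membrane, which are then taken up from the surface. In mammalian cells *TXNIP* and *ARRDC4* are known as genes that glucose raises through the transcription factors MondoA (*MLXIP*) and ChREBP (*MLXIPL*), each of which binds DNA with its partner MLX. The TXNIP protein binds thioredoxin and lowers uptake of glucose by promoting the internalization of glucose transporters, and ARRDC4 also lowers glucose uptake. ARRDC3 is known as an adaptor for integrin beta 4, and ARRDC1 recruits the ESCRT protein TSG101 to the cell membrane, where vesicles bud. Less is known about ARRDC2.

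Ratios of NHSM over SOF were calculated on the log2 scale from mean spot intensities after loess normalization within each array. Standard errors are those of a limma fit with a term for the dye. This fit draws the variance of each probe toward that of all probes, so they do not follow from the SD over arrays alone. Levels are the channel intensities of a pool on a linear scale after normalization within and between arrays, and levels of different probes cannot be compared with each other. A floor was set in each channel from control spots, at intensities between 83.5 and 140.3, while the median gene probe gave 122 to 143. On all arrays together 20,542 of 43,653 probes (47.1%) lay above the floor in all 4 NHSM or all 4 SOF pools. Correlation of the log2 ratios between arrays ranged from 0.06 to 0.59 across probes, which are not independent of each other. After loess these ratios still held a Cy5 over Cy3 effect, between -0.28 and 0.39 for 95% of probes. The part of this effect in the correlations was not tested. Of all probes, 370 were called higher in NHSM and 394 lower, at an adjusted p under 0.05 and at least 1.5-fold. When arrays were centred on their median in place of loess, 563 were called higher and 300 lower.

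Among the 19 alpha-arrestin probes, 3 were called higher in NHSM, 1 each of *ARRDC4*, *TXNIP* and *ARRDC2*, and 0 were called lower. Over all probes 0.848% were called higher, and 1.75% were called in either direction. These calls come from the contrast in which the family was noticed, and their number is given only as a description. In 5 of the 19 probes every NHSM pool lay above every SOF pool, and in 0 every NHSM pool lay below, where 3.96% of all probes had all NHSM pools above. Only 9 of the 19 probes were above the floor in a whole group of pools, 1 of *ARRDC4*, 2 of *TXNIP*, 1 of *ARRDC2*, 2 of *ARRDC3* and all 3 of *ARRDC1*. The other 10 probes lay near the floor and carry little information about their genes. The median log2 ratio was 0.05 over the 19 probes and 0.23 over the 9, against -0.01 over all probes and -0.02 over all probes above the floor.

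**Figure D1:**
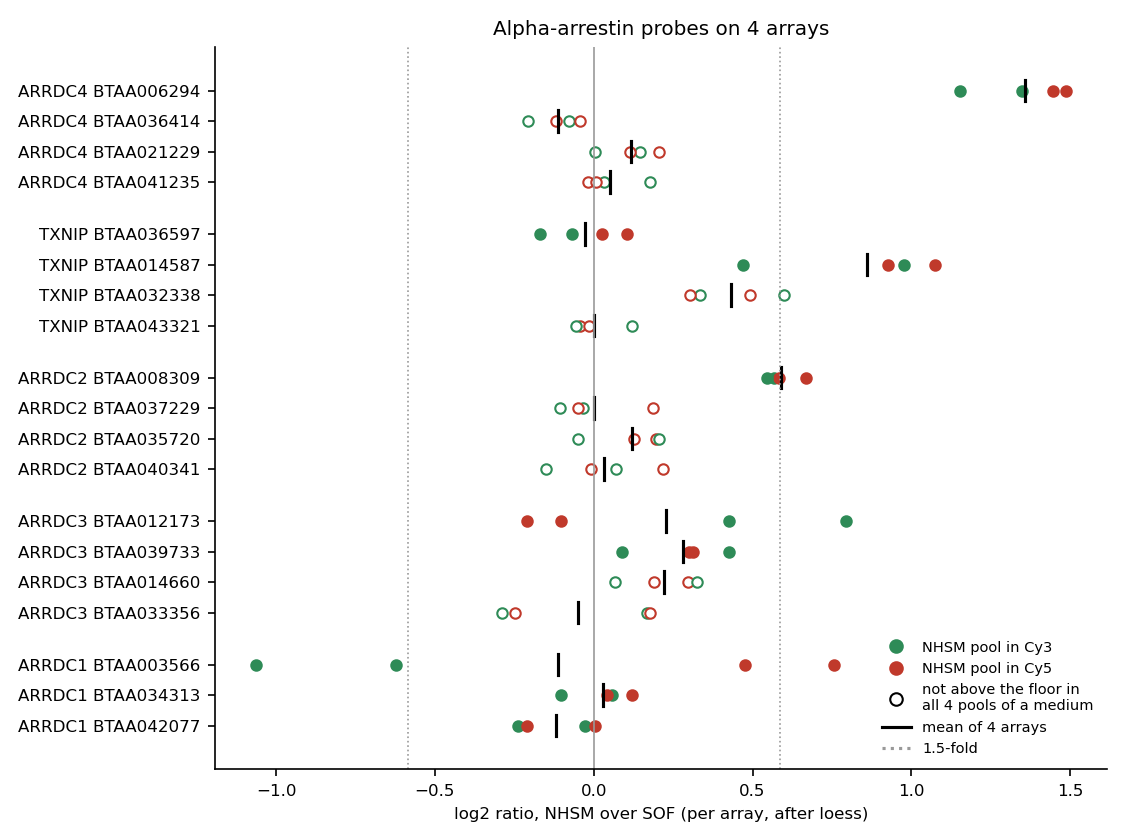
Log2 ratio of NHSM over SOF (horizontal axis) of each alpha-arrestin probe (rows) on each of 4 arrays, coloured by the dye of the NHSM pool, with open circles for probes not above the floor in all 4 pools of a medium, black ticks for means and dotted lines at 1.5-fold. The 4 circles of *ARRDC4* BTAA006294 lie between 1.15 and 1.49, those of *ARRDC2* BTAA008309 between 0.54 and 0.67, and those of *ARRDC1* BTAA003566 fall on both sides of 0 by dye.

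*ARRDC4* had the largest difference of the family. Its brightest probe, BTAA006294, had levels of 511, 444, 415 and 515 in the NHSM pools of arrays 1 to 4, against 201, 163, 187 and 184 in the SOF pools. The lowest NHSM pool thus had more than the highest SOF pool, and the 4 pools of a medium lay close to each other. The level averaged 471 ± 49.6 in NHSM and 184 ± 15.6 in SOF (SD, n = 4 each). On the arrays the log2 ratio was 1.35, 1.45, 1.15 and 1.49, with a mean of 1.36 (SD 0.15, standard error of the fit 0.07), or 2.57-fold higher in NHSM. It ranked 17th among all 43,653 probes and 8th among the named genes, and on single arrays it ranked between 17th and 64th. With the NHSM pool in Cy3 the mean log2 ratio was 1.25, and with the NHSM pool in Cy5 it was 1.47, so that both dye orientations gave the same direction. The ratios that the authors deposited for this probe, in which the dye bias of each gene is corrected, were 1.44, 1.35, 1.30 and 1.40.

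The other 3 probes of *ARRDC4* did not separate the media. BTAA036414 was above the floor in 2 NHSM and 2 SOF pools and averaged 109 ± 8.19 in NHSM and 118 ± 8.97 in SOF, with a log2 ratio of -0.11. BTAA021229 and BTAA041235 were above the floor in 2 and 1 NHSM pools and in 0 SOF pools, with log2 ratios of 0.12 and 0.05. The difference in *ARRDC4* therefore rests on 1 probe, and the mean over its 4 probes was 0.35. Probe positions were not used here, and which part of the transcript each probe reads is not given in the sources used here.

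The probes of *TXNIP* disagreed with each other. BTAA036597, its brightest probe, gave 239, 210, 224 and 229 in the NHSM pools of arrays 1 to 4, against 250, 206, 253 and 213 in the SOF pools. The media overlapped, with 225 ± 11.8 in NHSM and 231 ± 24.4 in SOF, and the mean log2 ratio was -0.03 (SD 0.12, standard error of the fit 0.07). BTAA014587, in contrast, gave 185, 240, 276 and 254 in the NHSM pools, against 134, 114, 141 and 133 in the SOF pools. All NHSM pools lay above all SOF pools for this probe, with means of 239 ± 38.8 in NHSM and 131 ± 11.4 in SOF. Its log2 ratios were 0.47, 1.07, 0.98 and 0.93, with a mean of 0.86 (SD 0.27, standard error of the fit 0.09), or 1.82-fold. Array 1 was the low one of these, where the probe ranked 1978th of all probes, against 92nd to 156th on the other 3 arrays. In SOF the probe was above the floor in 3 of 4 pools.

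A further *TXNIP* probe, BTAA032338, moved in the same direction as BTAA014587 at the edge of detection. It gave 117, 128, 133 and 122 in the NHSM pools and 93.0, 91.2, 87.6 and 99.2 in the SOF pools. None of the SOF pools and 3 of the 4 NHSM pools were above the floor. The NHSM mean was set against the lowest signal above the floor in each SOF pool, or the level of the probe itself where that was higher. This gave 1.15-fold, but it is not a strict lower limit, since the NHSM pool of array 1 was itself below the floor. The same value was 0.92 and 0.88 for *ARRDC4* BTAA021229 and BTAA041235 and 0.97 for *ARRDC2* BTAA035720, also dim in SOF. The fourth probe, BTAA043321, was above the floor in 0 of 8 pools and had 85.3 ± 6.77 in NHSM and 85.2 ± 5.81 in SOF. Described by its brightest probe *TXNIP* had a log2 ratio of -0.03 and ranked 6810th of 12,545 genes. The mean over its 4 probes was 0.32, and whether *TXNIP* was raised thus depends on the probe that stands for it. The study took the most 3′ probe of each gene, a rule that was not applied here.

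**Figure D2:**
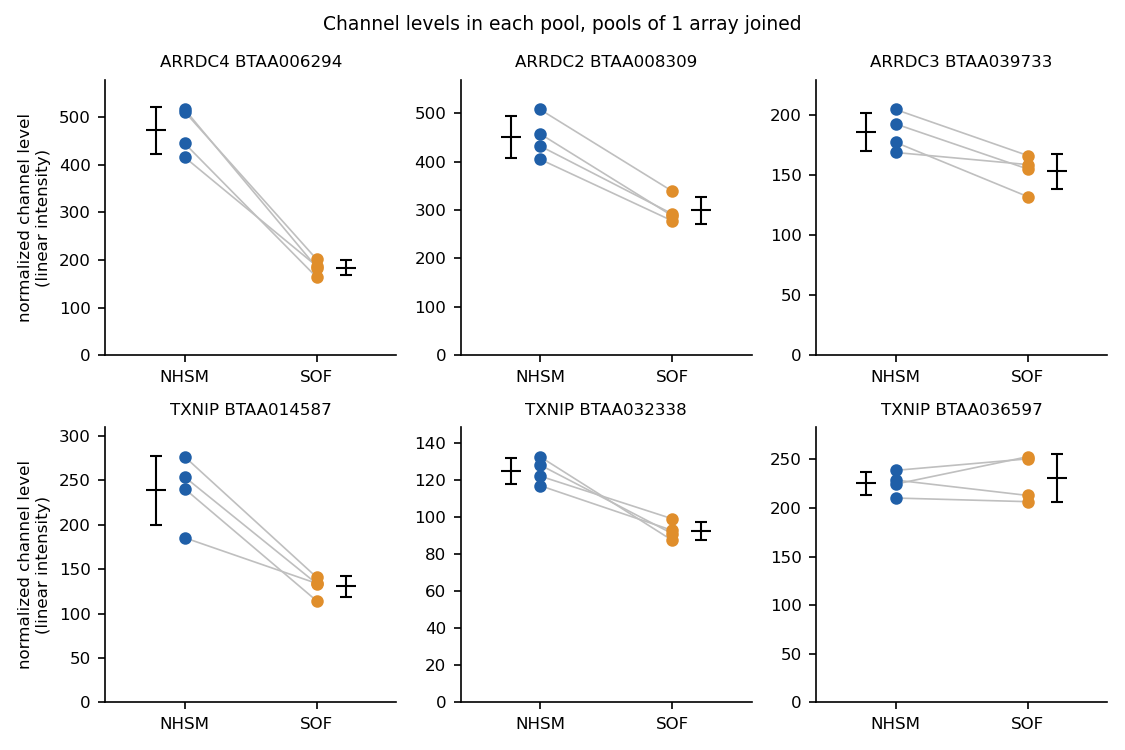
Normalized channel level (vertical axes, linear intensity from 0) in the 4 NHSM pools (left of each panel) and the 4 SOF pools (right) for 6 probes, with lines joining the pools of 1 array and black bars for mean ± SD. In 5 panels all NHSM pools lie above all SOF pools, and in that of *TXNIP* BTAA036597 they overlap.

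*ARRDC2* had the smallest spread over arrays of all 19 probes. BTAA008309 gave 432, 508, 405 and 457 in the NHSM pools of arrays 1 to 4, against 292, 339, 278 and 288 in the SOF pools. Every NHSM pool lay above every SOF pool, with 450 ± 43.7 in NHSM and 299 ± 27.2 in SOF. The log2 ratios were 0.57, 0.58, 0.54 and 0.67, and their mean of 0.59 (SD 0.05, standard error of the fit 0.06) is 1.51-fold, just past the 1.5-fold limit for a call. Without replicate 4 the mean was 0.57, below that limit. The probe ranked 374th of all probes and 154th of the genes. The next member probe below the limit was *TXNIP* BTAA032338. Of the other 3 *ARRDC2* probes none was above the floor in all pools of a medium, and their log2 ratios were 0.00, 0.12 and 0.03, so that the mean over its 4 probes was 0.19.

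*ARRDC3* was measured by a bright probe and a dim one that behaved differently between arrays. The bright one, BTAA012173, had 3884, 2164, 3439 and 2505 in the NHSM pools of arrays 1 to 4, against 2242, 2326, 2561 and 2898 in the SOF pools. The groups overlapped, and the log2 ratio was 0.79 and 0.43 on arrays 1 and 3, where the NHSM pool was in Cy3, but -0.10 and -0.21 on arrays 2 and 4, where it was in Cy5. Its mean of 0.23 (SD 0.47, standard error of the fit 0.08, with the dye as a term) thus averages opposite signs in the dye orientations. Its dye effect, the log2 ratio of Cy5 over Cy3 that does not depend on the medium, was -0.38, larger in size than that of 96.8% of all probes. In the authors' ratios, corrected for dye, the probe had 0.39, 0.19, -0.04 and 0.12.

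The dim *ARRDC3* probe, BTAA039733, gave 177, 192, 168 and 204 in the NHSM pools against 132, 155, 158 and 166 in the SOF pools. Here each NHSM pool lay above each SOF pool, by a narrow margin between the lowest NHSM pool at 168 and the highest SOF pool at 166. The mean log2 ratio was 0.28 (SD 0.14, standard error of the fit 0.08), with 0.26 and 0.31 in the dye orientations with NHSM in Cy3 and in Cy5, and a dye effect of 0.02. BTAA014660, above the floor in 3 NHSM and 3 SOF pools, had a log2 ratio of 0.22 and was positive on 4 of 4 arrays. The fourth *ARRDC3* probe, BTAA033356, had -0.05, with 0.17, -0.25, -0.29 and 0.18 on the arrays.

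For *ARRDC1* no probe separated the media. BTAA003566, the brightest, had 1878, 1840, 1200 and 1313 in the NHSM pools of arrays 1 to 4, against 2893, 1088, 2510 and 943 in the SOF pools. The SOF pools fell into a high pair on arrays 1 and 3, in Cy5, and a low pair on arrays 2 and 4, in Cy3, and the SD of the SOF level was 988 around a mean of 1859, while NHSM had 1558 ± 351. The log2 ratio was -0.62, 0.76, -1.06 and 0.48 on the arrays, with a mean of -0.11 (SD 0.87, standard error of the fit 0.09) and a dye effect of 0.73, larger in size than that of 99.0% of all probes. In the authors' ratios the probe had 0.12, 0.18, -0.15 and -0.14. BTAA034313 averaged 180 ± 4.91 in NHSM and 176 ± 10.8 in SOF, with a log2 ratio of 0.03, and BTAA042077 had 122 ± 19.1 in NHSM and 132 ± 13.6 in SOF, with -0.12.

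**Figure D3:**
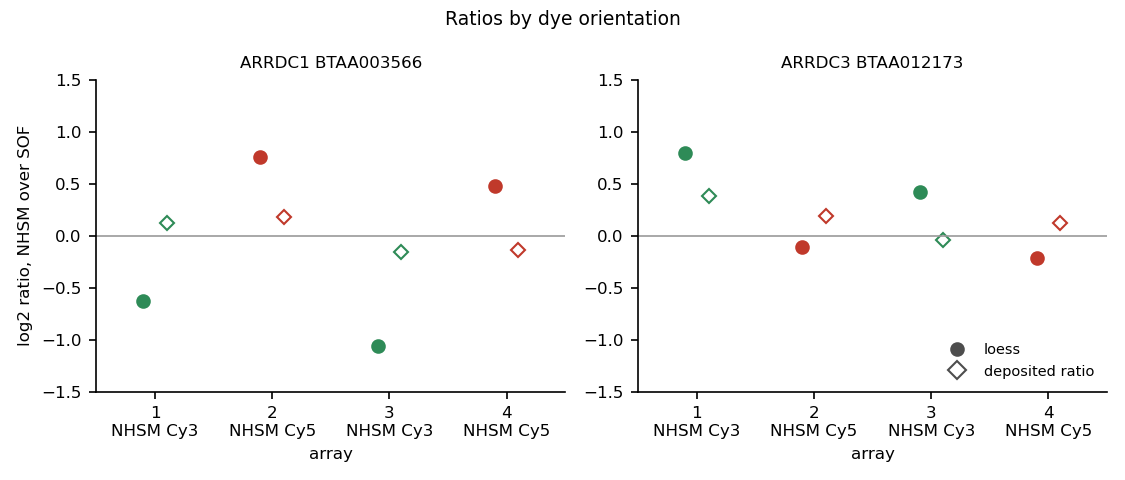
Log2 ratio of NHSM over SOF (vertical axis) on each of the 4 arrays (horizontal axis, with the dye of the NHSM pool) for the bright probes of *ARRDC1* and *ARRDC3*, as filled circles after loess and as open diamonds in the ratios the authors deposited. After loess the sign follows the dye on all 4 arrays for both probes, and the deposited ratios lie between -0.15 and 0.39.

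The genes most like *ARRDC4* were the 5 named genes whose brightest probe had the smallest Euclidean distance to BTAA006294 over the 4 log2 ratios, among 8483 genes above the floor. They were *BEX3* (distance 0.37, mean log2 ratio 1.27), *MCC* (0.40 and 1.23), *XDH* (0.41 and 1.49), *PAGE4* (0.42 and 1.21) and *DHRS9* (0.47 and 1.20). *XDH* encodes xanthine oxidoreductase, which ends purine breakdown, and *DHRS9* a short-chain dehydrogenase. The genes nearest to the brightest *TXNIP* probe were *TRPV2*, *S100A12*, *LYL1*, *NPC1L1* and *STMN4*, with mean ratios between -0.05 and -0.02. Distances to the *TXNIP* probe BTAA014587 were added after its values were seen. Its nearest genes were *INA*, *CRISP2*, *TKTL2*, *UCHL1* and *IPPK*, at distances of 0.20 to 0.33 and with mean ratios between 0.78 and 0.98. Likeness here is over 4 arrays only.

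The 2 protein-coding genes on each side of every member on its chromosome were also looked at, by their order in the RefSeq annotation of ARS-UCD2.0, a choice made after the members' values were seen. Of the 20 neighbours 16 were measured, and 0 passed an adjusted p under 0.05 in limma, with 1 at an unadjusted p under 0.05. Their log2 ratios lay between -0.19 and 0.15. Beside *ARRDC4*, *FAM169B* had 0.09 and *NR2F2* had 0.02, and beside *TXNIP*, *HJV* had -0.04 and *POLR3GL* -0.06.

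The genes that regulate the alpha-arrestins or act with them were described in 7 lists, with 69 genes measured, each by its brightest named probe. The lists were chosen with earlier results of these data known, so their counts are a description and no list was tested as a whole. For these genes "passed" means an adjusted p under 0.05 over the 12,545 genes by limma. Over all genes 6.87% passed higher in NHSM and 6.91% passed lower, and the median log2 ratio was -0.02. With shares of this size, a single gene that passed in so short a list says little about the list. When each array was centred on its median instead, 7.57% passed higher and 4.11% lower.

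Of the transcription factors upstream of *TXNIP* and *ARRDC4*, only those of the MLX and MAX network were looked at. Of 13 measured genes of the MLX and MAX network, limma passed 0 as higher and 1 as lower, which left 12 that did not pass, with 0 higher at an unadjusted p under 0.05 and a median log2 ratio of -0.05. *MLX* had a log2 ratio of -0.04 (standard error 0.07, adjusted p = 0.809), *MLXIP* of -0.08 (0.07, 0.542) and *MLXIPL* of -0.05 (0.07, 0.712). Each was above the floor in all 8 pools. The gene that passed was *MYC*, a growth-promoting factor that pairs with MAX, which averaged 206 ± 10.5 in NHSM and 260.5 ± 8.27 in SOF (log2 ratio -0.34, standard error 0.07, adjusted p = 0.0159, lower on 4 of 4 arrays). Without replicate 2 its adjusted p was 0.0762, and without replicate 4 it was 0.1.

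Other genes that glucose raises through MondoA or ChREBP had 10 measured members of 18 listed. In limma 2 of these passed as lower and 0 as higher, while 8 did not pass, with 1 higher at an unadjusted p under 0.05. The median log2 ratio was -0.10. *BHLHE40*, a transcriptional repressor of the circadian clock, averaged 277 ± 56.3 in NHSM and 421 ± 23.2 in SOF (log2 ratio -0.62, standard error 0.09, adjusted p = 0.00597). *ACLY*, the enzyme that makes cytosolic acetyl-CoA from citrate, averaged 2253 ± 192 in NHSM and 3211 ± 177 in SOF (-0.51, 0.06, adjusted p = 0.00315). Both were lower on 4 of 4 arrays, and both passed under 12 of 12 alternative settings. *HK2*, named after its values were seen, was the 1 gene higher at an unadjusted p under 0.05, with 0.19 (adjusted p = 0.124) and positive on 4 of 4 arrays. Only 7 of the 10 genes were above the floor in a whole group of pools. With 6.87% of all genes passing higher, a count of 0 among so few genes says little about this list.

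Thioredoxin, the protein that TXNIP binds, and the enzymes around it were the list with most genes higher in NHSM. Of 12 measured genes limma passed 6 as higher and 0 as lower, which left 6 that did not pass, with 0 lower at an unadjusted p under 0.05, and the median log2 ratio was 0.26. *TXN* itself was higher by 0.69 (standard error 0.07, adjusted p = 0.00175), with 0.80, 0.69, 0.86 and 0.41 on the arrays. *SRXN1*, which repairs over-oxidized peroxiredoxins, was higher by 0.65 (0.08, adjusted p = 0.00226). *TXNRD1*, the cytosolic thioredoxin reductase, was higher by 0.59 (0.07, adjusted p = 0.00277) with its brightest probe. Its other 3 probes, all above the floor, had -0.11, -0.34 and -0.06, and BTAA017144, at -0.34, was lower at an adjusted p of 0.0484 over all probes, so the direction of *TXNRD1* depends on the probe. *PRDX3*, the mitochondrial peroxiredoxin, was higher by 0.54 (0.06, adjusted p = 0.00259). The other 2 genes that passed lost their calls without single replicates. These were *PRDX6*, with 0.0701 without replicate 2 and 0.0576 without replicate 4, and *TXNL1*, with 0.0648, 0.172 and 0.0999 without replicates 1, 2 and 4.

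Among the NEDD4 family of ubiquitin ligases, which alpha-arrestins bind, 10 genes were measured, of which limma passed 1 as lower and 0 as higher, while 9 did not pass, with 1 higher at an unadjusted p under 0.05. The median log2 ratio was -0.09. *NEDD4* averaged 405 ± 102 in NHSM and 585 ± 120 in SOF (log2 ratio -0.54, standard error 0.10, adjusted p = 0.014). It had -0.53, -0.95, 0.04 and -0.71 on the arrays, so that array 3 showed no difference, and without replicate 2 its adjusted p was 0.0584. Its other 3 probes had -0.20, -0.04 and -0.11 and did not pass. *NEDD4L* had -0.12 (0.07, adjusted p = 0.322), *ITCH* had -0.13 (0.08, 0.422) and *WWP1* had -0.12 (0.08, 0.436). The *ITCH* probe followed the dye as the bright *ARRDC1* probe did, with log2 ratios of -0.76, 0.77, -1.14 and 0.63 on arrays 1 to 4.

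Of the genes for membrane proteins known as cargo of alpha-arrestins, the mRNA of 8 was measured. In limma 3 were lower, 0 were higher and 5 did not pass, with 1 higher at an unadjusted p under 0.05. The median log2 ratio was -0.11. The lower ones were the mRNAs of 3 facilitative glucose transporters. Levels of mRNA do not show how much of a protein is taken up from the surface, which was not measured here. *SLC2A3* (GLUT3) was lower on 4 of 4 arrays, with a log2 ratio of -0.65 (standard error 0.11, adjusted p = 0.00805). Of its other 4 probes BTAA040237 had -0.58 (adjusted p = 0.0253 over all probes), and the remaining 3 had between -0.05 and 0.07. *SLC2A1* (GLUT1) had 2118 ± 233 in NHSM and 2670 ± 243 in SOF (log2 ratio -0.34, standard error 0.07, adjusted p = 0.0245). Its adjusted p was 0.144 without replicate 2, 0.0605 without replicate 3 and 0.0688 without replicate 4. With median centring it was 0.118, and *SLC2A1* passed under 6 of 12 alternative settings. *SLC2A4* (GLUT4) had -0.30 (0.07, adjusted p = 0.0248), but -1.25, 0.59, -1.12 and 0.59 on the arrays, so its sign followed the dye. It passed under only 4 of 12 alternative settings, and not without replicate 1 (0.0545), 2 (0.129) or 4 (0.129). *SLC11A2*, an iron transporter named after its values were seen, went the other way. Its brightest probe had 0.24 (0.07, adjusted p = 0.0595), and 5 of its other 9 probes were higher at an adjusted p under 0.05 over all probes, at 0.30 to 0.54, so that the count of 0 higher rests on the choice of probe.

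Of the genes for other proteins with an arrestin fold 6 were measured. In limma 1 was higher, 0 were lower and 5 did not pass, with 1 lower at an unadjusted p under 0.05. Their median log2 ratio was -0.06. *VPS26A*, a subunit of the retromer complex that returns cargo from endosomes, had 0.40 (standard error 0.09, adjusted p = 0.0249), with 0.63, -0.15, 1.03 and 0.08 on the arrays. The mean was 0.83 with NHSM in Cy3 and -0.04 with NHSM in Cy5, and its dye effect was larger in size than that of 97.4% of all probes. Its adjusted p was 0.127 without replicate 4 and 0.0513 with the authors' ratios. *ARRDC5*, the remaining alpha-arrestin of the ARRDC group, had no named probe here. The beta-arrestins *ARRB1* and *ARRB2* had log2 ratios of -0.03 each and did not pass.

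The ESCRT and budding genes, with which ARRDC1 acts, had 10 measured members, 1 higher, 0 lower in limma and 9 that did not pass, with 1 lower at an unadjusted p under 0.05 and a median log2 ratio of 0.09. *STAM*, which sorts ubiquitinated cargo on endosomes, had 224 ± 45.6 in NHSM and 179 ± 38.8 in SOF (log2 ratio 0.32, standard error 0.08, adjusted p = 0.0336). Its adjusted p was 0.0507, 0.0712 and 0.219 without replicates 2, 3 and 4, and it passed under 5 of 12 alternative settings. *TSG101*, the partner of ARRDC1, had 0.15 (0.07, adjusted p = 0.218). Its other 3 probes had 0.23, 0.15 and 0.32, of which BTAA038322, above the floor in 3 NHSM and 3 SOF pools, passed over all probes (0.32, adjusted p = 0.0288).

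**Figure D4:**
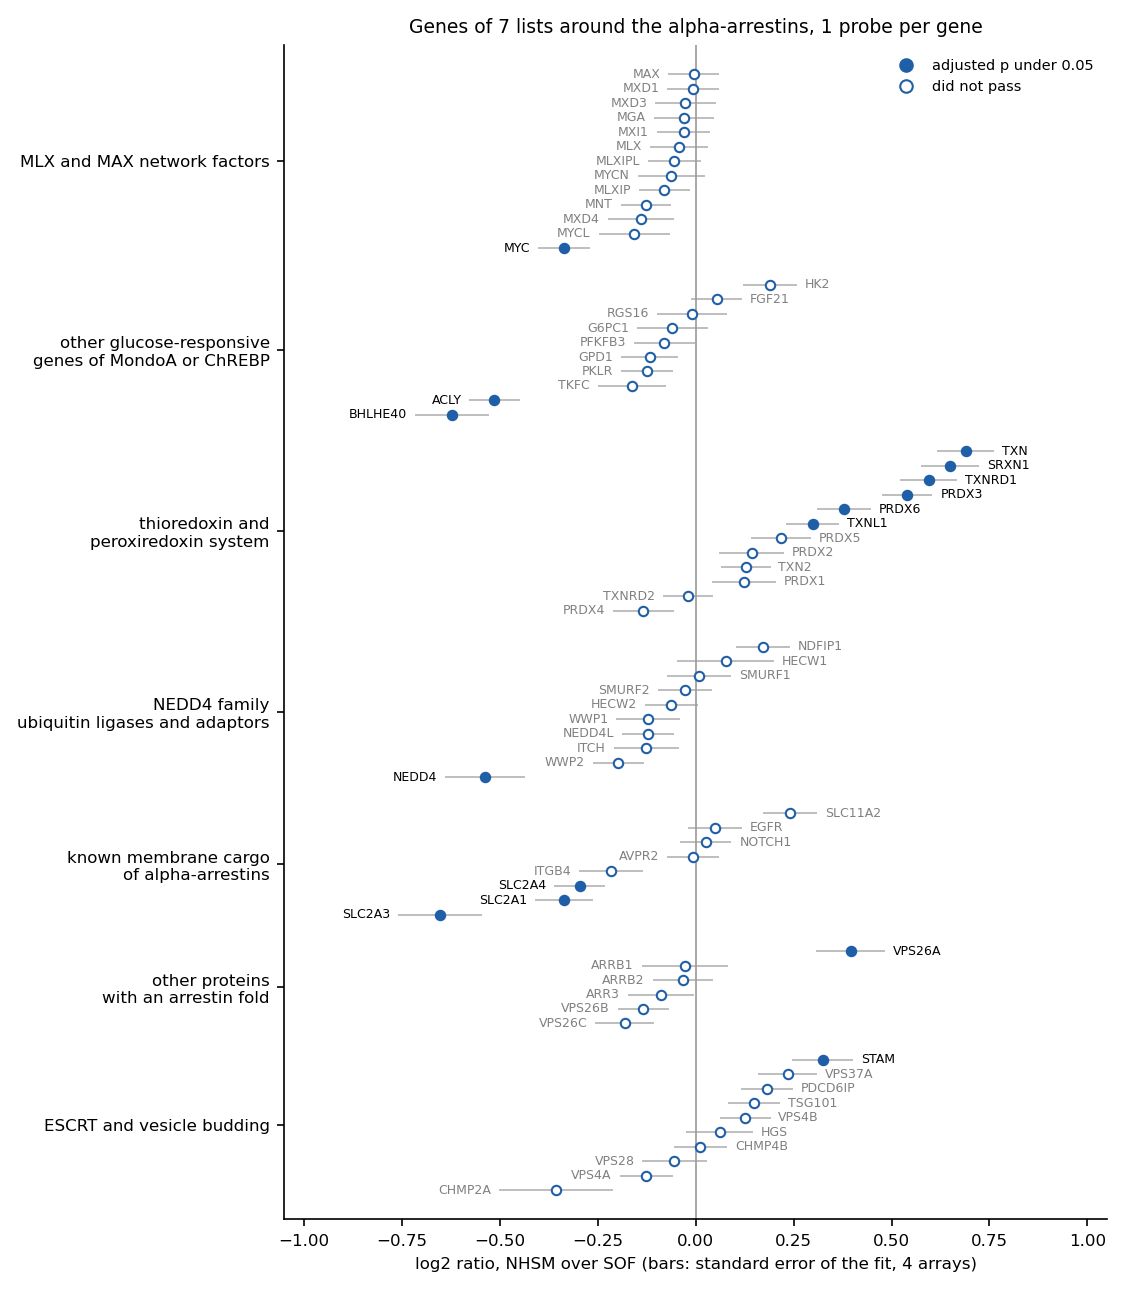
Log2 ratio of NHSM over SOF (horizontal axis) of the 69 measured genes of 7 lists (rows), by the brightest probe of each gene, with bars for the standard error of the fit over 4 arrays, and filled points for an adjusted p under 0.05 over all genes. Points of the thioredoxin list that passed lie right of 0, at 0.30 to 0.69, and those of the glucose transporters lie left of it, at -0.65 to -0.30. Among these transporters the ratio of *SLC2A4* changed sign with the dye, and *SLC2A1* passed under 6 of 12 alternative settings.

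Markers of the cell types that the dissected ICMs can hold also differed, counted here by the brightest probe of each gene. Of the epiblast markers 3 of 4 measured were lower in NHSM (*NANOG*, *SOX2* and *PRDM14*, at -0.31, -0.32 and -0.32), while *LIN28B* was above the floor in 0 pools. Of the hypoblast markers 1 of 5 was lower (*GATA6*, -0.44), and of the trophectoderm markers 2 of 7 were lower (*TFAP2A*, -0.46, and *GATA2*, -0.35). Among the cumulus and granulosa markers *FSHR* was higher (0.44), and the other 3 did not pass. Dimmer probes of 4 markers that did not pass were past an adjusted p of 0.05 over all probes, 2 of *FGFR2* (-0.48 and -0.42) and 1 each of *KRT19* (-0.55), *DAB2* (-0.30) and *CYP19A1* (0.43). In turn, no other probe of *NANOG*, *SOX2*, *GATA6*, *TFAP2A*, *GATA2* or *FSHR* passed over all probes, and *PRDM14* had a single probe. The 2 other *NANOG* probes had 0.10 and -0.06. The paper reports no significant change of *SOX2* in the ICM. It also reports lower *NANOG* in NHSM on these arrays, by less than 1.5-fold, which its qRT-PCR did not bear out. Summed levels lay between 4248 and 5368 in NHSM and between 5602 and 6233 in SOF for epiblast, and between 2733 and 3047 in NHSM and between 3281 and 3494 in SOF for hypoblast. For trophectoderm they overlapped, at 58725 to 78915 in NHSM and 71270 to 87257 in SOF, as they did for cumulus and granulosa cells, at 661 to 745 in NHSM and 608 to 764 in SOF. Such a sum follows its brightest probes, mainly *NANOG* for epiblast and *TFAP2C* for trophectoderm, and the log2 ratio of the *TFAP2C* probe changed sign with the dye, with 0.62, -0.69, 0.51 and -0.85 on the arrays. The part of these markers in the differences of *ARRDC4*, *TXNIP* and *ARRDC2* was not tested, and in such pools fewer cells of a type and less RNA per cell cannot be told apart.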

How the data were processed

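Total RNA of 4 NHSM and 4 SOF pools of bovine ICMs was compared on 4 arrays. The authors scanned the arrays and quantified the spots, and the deposited scanner files hold the mean signal intensity of each spot and channel on a linear scale, not normalized. The authors also deposited a table of log2 ratios, after loess and correction of dye bias per gene, which was used as an alternative. Medium and dye of a channel were taken from the labels. The files do not name the dyes of their columns, which were read by the channel numbers of the labels.

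Here mean intensities were turned into log2 ratios and loess was run within arrays without background correction, with the 1567 control spots at weight 0, in limma 3.58.1 (R 4.3.3). The fit held the dye and NHSM over SOF as terms, with 2 residual degrees of freedom. Variances were moderated by empirical Bayes toward those of all probes, with 5.33 prior degrees of freedom. Benjamini-Hochberg adjustment was made over 43,653 probes or 12,545 genes. Channel levels followed after Aquantile normalization. The floor was the 95th percentile of the spots of 2 control probes in each channel. The number of arrays limits the precision.

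The members and gene lists were chosen with earlier results of these data known. All member probes were named, and of each list the genes that passed, at most 4 by size, with 12 genes given whatever their values, and the 5 genes most like *ARRDC4* and *TXNIP*. Promoter, protein and probe sequences were not analysed here. The limma fit was tested on simulated ratios with known changes.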

Additional observations from a re-analysis of the deposited data

How the results depend on the processing

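The log2 ratios of the 9 alpha-arrestin probes above the floor were recalculated under normexp background correction, median centring, the authors' ratios and without each replicate. Dropping the dye term, separate channels without the replicate block and an intensity trend leave the mean ratio as it is by construction in this balanced design and say nothing about it. Of the other 63 values 1 moved by more than the SD over arrays, *ARRDC2* BTAA008309 with 0.64 by median centring, and none that was called changed its sign. Without replicate 4 that *ARRDC2* probe had 0.57, below the 1.5-fold limit for a call. For the bright *ARRDC1* and *ARRDC3* probes the SD over arrays, 0.87 and 0.47, holds the swing with the dye, so few changes could exceed it. *ARRDC1* BTAA003566 ranged from -0.22 to 0.00, and *ARRDC3* BTAA012173 from 0.13 to 0.32. The probe that stands for a gene mattered more. With the mean of all probes *ARRDC4* had 0.35 in place of 1.36, *TXNIP* had 0.32 in place of -0.03, and *ARRDC2* had 0.19 in place of 0.59. The probes of *ARRDC4* and *ARRDC2* other than the brightest lie near the floor, and for *TXNIP* the mean takes in BTAA014587, at 0.86.

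Of the counts, median centring called 563 probes higher in place of 370. It left 0 MLX and MAX network genes lower, 1 cargo gene lower and 1 cargo gene higher. Without the dye term 0 NEDD4 family genes were lower, 1 cargo gene was lower, and 0 genes with an arrestin fold and 0 ESCRT genes were higher. With separate channels and no replicate block 3 thioredoxin genes were higher, 0 NEDD4 family genes were lower, and 0 genes with an arrestin fold and 0 ESCRT genes were higher. With the authors' ratios 0 genes with an arrestin fold were higher. The filter on dim probes and the mean of all probes each gave 1 cargo gene higher, and the mean of all probes gave 1 cargo gene lower. Leaving out 1 replicate gave 0 to 1 lower for the MLX and MAX network, 0 to 1 lower for the NEDD4 family, and 1 to 2 lower and 0 to 1 higher for cargo. It gave 0 to 1 higher for arrestin fold genes, and 0 to 1 higher and 0 to 1 lower for ESCRT genes. The causes of these changes were not tested. Over all genes 355 to 973 passed higher and 361 to 1244 passed lower under the alternatives, against 862 and 867. Signal near the floor limits 10 of the 19 alpha-arrestin probes.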
